A study of Mus musculus with 22 samples.

Results

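The question addressed here was whether removing S100a9 from transplanted bone marrow, on top of Gipr, changed gene expression differently in 2 fat depots of the mouse. The comparison used 14 of the 22 arrays of the series: all arrays of epididymal white fat (epiWAT) and inguinal white fat (ingWAT) whose titles name Gipr-/- or Gipr-/-S100a9-/- marrow. EpiWAT had 4 arrays with Gipr-/- marrow against 4 with Gipr-/-S100a9-/- marrow, called double-knockout marrow below. IngWAT had 3 and 3. All mice were male C57BL/6J animals that had 6 weeks for the marrow to reconstitute and then 14 weeks of a diet with 60% of its calories from fat. Gipr-/- marrow went into wild-type (WT) recipients; the recipient of double-knockout marrow and the age of the mice are not given in the sources used here. By their titles, both groups compared therefore lack Gipr in the marrow, and they differ by S100a9 in the marrow. The other 8 arrays, 4 per depot, came from mice with WT marrow and entered none of the differences in the main fit. They entered the estimate of the spread, the filter on dim genes, the centring of marker scores and the fits with covariates.

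Fat depots differ in origin and cell content: epididymal fat is visceral and gains many macrophages in obesity, while inguinal fat is subcutaneous, can acquire heat-producing adipocytes and contains a lymph node. GIP is a gut hormone released after meals, and its receptor, Gipr, is present on some myeloid cells. S100a9 and S100a8 are calcium-binding proteins that pair with each other, are abundant in neutrophils and monocytes, and act as alarmins once released. In a chimera only blood-derived cells carry the knockout, while adipocytes, vessels and most stromal cells belong to the recipient. In whole fat, fewer cells of a type and less RNA per cell cannot be told apart.

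The depot labels were borne out by known depot genes. The visceral genes Wt1, a transcription factor of the mesothelium, and Upk3b, a mesothelial membrane protein, read 4.85 to 6.14 and 7.48 to 12.21 over the 8 epiWAT arrays compared. In the 6 ingWAT arrays Wt1 read 2.72 to 3.38 and Upk3b 3.99 to 5.07. The developmental factor Tbx15 went the other way, at 3.37 to 5.04 in epiWAT and 6.73 to 8.01 in ingWAT. Adipoq, the adiponectin gene, was among the brightest features in both depots, with 19.18 to 19.37 in ingWAT and up to 19.40 in epiWAT. All values are log2 array values as deposited, and a difference of 1 is read as a doubling.

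Some arrays carried RNA of other tissues, and these arrays bear on much of what follows. Each array was given a marker score per list: every gene was centred on its mean over the 22 arrays, and the list's centred log2 values were averaged. IngWAT arrays 1 and 3 with double-knockout marrow scored 3.92 and 3.69 for B cell and plasma cell markers, while array 2 of that group scored -0.88. The B cell receptor gene Cd79a read 12.78, 5.06 and 11.92 in these 3 arrays and 4.78, 5.29 and 4.68 in ingWAT with Gipr-/- marrow. Glycam1, a gene of the venules of lymph nodes, read 9.01, 3.88 and 10.08 against 4.11, 3.80 and 4.23. Skeletal muscle genes were scattered over ingWAT, with scores of 2.54, 4.81 and -0.81 with double-knockout and -0.77, 0.44 and 1.83 with Gipr-/- marrow. In epiWAT, array 1 with double-knockout marrow scored 5.63 for epididymis genes, and array 1 with Gipr-/- marrow scored 6.97 for testis germ cell genes.

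**Figure D1:**
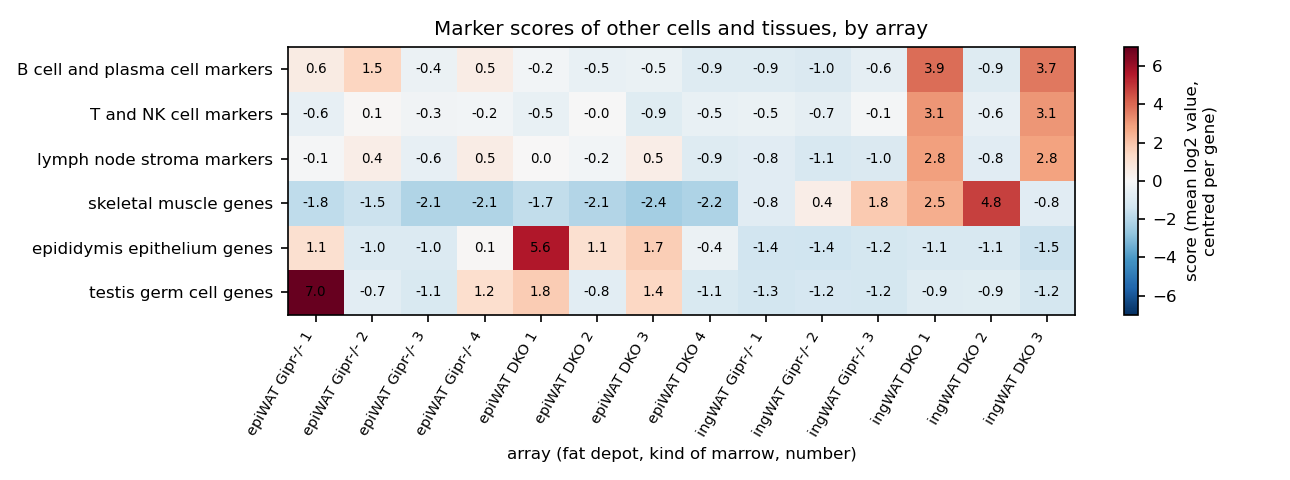
Marker scores (log2 units, centred per gene over the 22 arrays) of 6 other cell types or tissues in each of the 14 arrays compared, where DKO is double-knockout marrow. The lymphocyte and lymph node rows are high in ingWAT DKO 1 and 3 and low in ingWAT DKO 2; epididymis genes peak in epiWAT DKO 1 at 5.63 and germ cell genes in epiWAT Gipr-/- 1 at 6.97.

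The genes that moved alike in both depots included the matricellular gene Ccn1 and the metal-binding protein gene Mt2, which fell, and the lipolysis inhibitor gene G0s2 and the insulin receptor substrate gene Irs1, which rose. Their promoters are shown because their values carry the part of the result that the depots share. The 250 bases before the transcription start are from RefSeq on GRCm38.p6. In Ccn1 and Irs1 the capitals mark GGAATG, the core of the sites of TEAD factors. In Mt2 and G0s2 they mark TGCNCNC, where N is any base. That pattern is looser than the core of metal response elements, TGCRCNC, where R is A or G. Some marked stretches, such as TGCTCTC in Mt2, match only the looser pattern. Both strands were searched, and a motif on the other strand is in capitals as its reverse complement.
Ccn1, minus strand of chr3:145649986-145650235: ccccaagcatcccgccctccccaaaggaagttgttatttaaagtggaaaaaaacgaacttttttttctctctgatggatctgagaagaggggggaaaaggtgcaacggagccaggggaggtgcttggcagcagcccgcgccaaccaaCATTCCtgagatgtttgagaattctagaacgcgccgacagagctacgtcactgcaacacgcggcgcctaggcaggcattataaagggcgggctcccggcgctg
Mt2, plus strand of chr8:94172368-94172617: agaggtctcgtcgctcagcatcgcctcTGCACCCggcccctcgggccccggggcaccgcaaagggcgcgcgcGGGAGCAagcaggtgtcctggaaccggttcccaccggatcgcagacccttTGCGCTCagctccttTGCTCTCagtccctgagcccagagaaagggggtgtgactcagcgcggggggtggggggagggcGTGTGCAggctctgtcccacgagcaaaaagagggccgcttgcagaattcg
G0s2, minus strand of chr1:193273189-193273438: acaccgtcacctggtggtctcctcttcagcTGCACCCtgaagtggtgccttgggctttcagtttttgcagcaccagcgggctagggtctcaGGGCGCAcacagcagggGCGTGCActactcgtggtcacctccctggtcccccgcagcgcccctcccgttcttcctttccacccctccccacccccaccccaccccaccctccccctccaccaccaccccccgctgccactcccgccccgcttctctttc
Irs1, minus strand of chr1:82291440-82291689: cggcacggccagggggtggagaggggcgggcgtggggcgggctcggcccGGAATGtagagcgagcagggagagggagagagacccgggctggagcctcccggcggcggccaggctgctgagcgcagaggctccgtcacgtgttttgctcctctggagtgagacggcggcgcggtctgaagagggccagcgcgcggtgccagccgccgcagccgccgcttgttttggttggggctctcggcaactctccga

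The Ccn1 window holds GGAATG at 103 to 98 bases before the start, on the other strand, and the Irs1 window at 201 to 196. The Mt2 window holds TGCNCNC 5 times, the G0s2 window 3 times and the Irs1 window 2 times, at 191 to 185 and 132 to 126 bases before the start, not in capitals here. Over all 27025 promoters of this length in the table, GGAATG occurred in 12.6% and TGCNCNC in 43.8%; over the 11690 tested genes with a promoter the shares were 11% and 50.2%. Among the genes called alike and lower in both depots (defined below), 97 of 122 had a promoter in the table, and 6.2% of these held GGAATG and 43.3% TGCNCNC. Among those called alike and higher, 21 of 31 had one, with 9.5% and 47.6%. Neither motif was more frequent in either set than over the tested genes, and a match is only a description of the letters.

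The change from Gipr-/- to double-knockout marrow differed between the depots in 104 of 14503 genes, 0.717% of the genes tested. The test was limma's, of the difference of differences, with Benjamini-Hochberg adjusted p under 0.05. Of these, 50 (0.345% of the genes tested) went up in ingWAT relative to epiWAT and 54 (0.372%) went down. Among the 50 were Rpsa and Rpl7 of the cytosolic ribosome, H4c12 and other histone H4 genes, the RNA-binding protein gene Hnrnpc and the B cell chemokine gene Cxcl13. Among the 54 were Surf4 of the secretory pathway, the sterol and ceramide synthesis genes Nsdhl and Cers4, the creatine synthesis gene Gamt and the oxytocin receptor gene Oxtr. Among the 50, 49 had changes of opposite sign in the 2 depots, and among the 54, 46 had. Selection by the difference favours opposite signs, so these counts are no separate result. Over all 14503 genes tested, 3624 had a positive and 3959 a negative change in both depots. Both changes had a limma unadjusted p under 0.05, with opposite sign, in 18 of the 50 and 24 of the 54. Over all genes 0.945% had, with both directions counted together. In ingWAT itself 43 of the 50 and 43 of the 54 also passed the adjusted threshold. Over all genes 1.45% passed there as higher and 1.77% as lower. In epiWAT 1 of the 50 and 0 of the 54 did, against 0.00690% of all genes. Selection by the difference favours these counts as well, so they are no separate result either.

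This count leaned on the arrays in the fit. It was 2 when only the 14 arrays compared were fitted, without the spread of the arrays with WT marrow. It was 5 without ingWAT Gipr-/- array 2, 26 without array 1 of that group, 7 without ingWAT double-knockout array 1, 21 without array 3 and 542 without array 2. Leaving out epiWAT arrays gave 29 and 35 without Gipr-/- arrays 1 and 4, and 259, 47, 58 and 51 without double-knockout arrays 1, 2, 3 and 4. With the B cell score as a covariate it was 9, and with both lymphocyte-rich arrays left out it was 5. The titles number ingWAT Gipr-/- arrays 1 and 2 as 91 and 92 and the other 4 ingWAT arrays compared as 71 to 75; what these numbers stand for is not given, and with title numbers over 80 as a covariate the count was 10. All 104 genes kept their sign in every alternative. Rpsa, H4c12, Surf4, Slc16a12 and Fbxl4 were called whichever of the 14 arrays was left out.

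Rpsa, which encodes a protein of the small ribosomal subunit and also a laminin receptor, had the smallest p of all genes. In ingWAT it read 11.99, 11.53 and 12.21 with Gipr-/- marrow against 14.02, 14.03 and 14.01 with double-knockout marrow. In epiWAT it read 13.23, 12.91, 13.22 and 13.08 with Gipr-/- against 13.13, 12.35, 12.60 and 12.84 with double-knockout marrow. The ingWAT groups did not overlap and the epiWAT groups did, and the 3 double-knockout ingWAT arrays lay above all other arrays of the series. The change was 2.11 ± 0.22 (SE) in ingWAT and -0.38 ± 0.19 in epiWAT, and the difference of differences was 2.49 ± 0.29 (limma, adjusted p = 0.000803). It was 2.50 both with the B cell score as covariate and without the lymphocyte-rich arrays, and it passed in all 29 alternatives. Rpsa has near-identical copies in the mouse genome, so its feature may also read others.

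H4c12, a histone H4 gene of the replication-dependent cluster, behaved in the same way. Its ingWAT arrays read 10.38, 10.59 and 10.30 with Gipr-/- against 12.27, 12.45 and 11.90 with double-knockout marrow, without overlap. In epiWAT the readings were 11.83, 10.66, 11.57 and 11.38 against 10.80, 10.32, 10.87 and 10.90, with overlap. The difference of differences was 2.42 ± 0.38 (limma, adjusted p = 0.0114). H4c3 and H4c6 followed at 2.45 and 2.67. The H4 genes are near-identical copies, so which of them changed is uncertain.

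Ints13, a subunit of the Integrator complex that processes small nuclear RNAs, had changes of opposite sign, without overlap in either depot. It read 8.91, 8.57, 8.44 and 8.38 in epiWAT with Gipr-/- marrow against 7.74, 7.90, 7.44 and 7.37 with double-knockout marrow. The ingWAT readings were 8.33, 7.47 and 7.93 against 9.04, 8.70 and 9.06. The difference of differences was 1.99 ± 0.36 (limma, adjusted p = 0.0204). Kdm2a, a histone demethylase, showed the same pattern, with changes of -0.74 in epiWAT and 0.69 in ingWAT and a difference of 1.42 ± 0.26 (limma, adjusted p = 0.0229). Hnrnpc, which binds nascent transcripts, had changes of -0.80 and 0.83, and Nop58, a core protein of the particles that modify ribosomal RNA, of -0.86 and 0.89. The differences of both passed, with limma adjusted p of 0.0282 and 0.0499. Of the 14 fits that left out 1 array, the difference passed in 11 for Ints13, 10 for Kdm2a, 7 for Hnrnpc and 2 for Nop58. Within a depot the changes of Kdm2a, Hnrnpc and Nop58 did not pass. Their limma adjusted p was 0.115, 0.153 and 0.209 in epiWAT and 0.0647, 0.0788 and 0.118 in ingWAT. The ingWAT groups overlapped for Hnrnpc.

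The genes of this paragraph were picked after their values were seen, other than B3gnt5, Parvg, St8sia1 and list members. Cxcl13, a stromal chemokine that draws B cells into follicles, had a difference of 6.59 ± 1.34 (limma, adjusted p = 0.0282). Its ingWAT arrays read 9.63, 8.27 and 8.35 with Gipr-/- marrow against 15.97, 10.86 and 15.53 with double-knockout marrow. Tnfrsf13c, the receptor of the B cell survival factor BAFF, read 5.22, 4.85 and 4.89 against 11.42, 6.00 and 10.42. The high arrays are the same ones that scored high for B cell markers. Array 2 also lay above all ingWAT Gipr-/- arrays for Cxcl13 and Tnfrsf13c. It did so for 47 of the 50 genes called higher in ingWAT relative to epiWAT. Selection by the call favours this position, so it is no separate result. The B cell marker score of array 2, -0.88, lay between those of ingWAT Gipr-/- arrays 1 and 3, at -0.90 and -0.63. B3gnt5, a glycosyltransferase of glycosphingolipids, had a difference of 4.35 ± 0.74 (limma, adjusted p = 0.0163), and its ingWAT double-knockout arrays read 9.61, 6.37 and 9.26. For B3gnt5 the difference was 1.72 in the alternative that lowered it most. Blk, a kinase of B cells, Lef1, a factor of T cells, and Cd40, a costimulatory receptor, also passed, at 3.46, 3.75 and 2.37. In the alternatives that lowered them most, the differences were 0.66 for Blk, 2.02 for Lef1 and 1.30 for Cd40. For Cxcl13 the lowest was 2.23 and for Tnfrsf13c 0.65. Of the 14 fits that left out 1 array, Blk, Lef1, Cd40 and Tnfrsf13c each passed in 3, Cxcl13 in 7 and B3gnt5 in 12. Parvg, an adhesion protein of blood cells, read 4.77, 4.39 and 5.12 against 7.40, 6.39 and 8.36 in ingWAT, with a difference of 2.78 ± 0.51 (limma, adjusted p = 0.0229). St8sia1, which makes the ganglioside GD3, read 4.25, 4.25 and 4.07 against 6.86, 5.37 and 7.04, with a difference of 2.65 ± 0.48. The part that lymph node RNA had in these changes was not tested.

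Surf4, a cargo receptor that carries secreted proteins out of the endoplasmic reticulum, led the genes that went down in ingWAT relative to epiWAT. It read 12.66, 13.21 and 12.72 in ingWAT with Gipr-/- marrow against 11.55, 11.53 and 11.76 with double-knockout marrow. In epiWAT it read 12.95, 12.69, 12.81 and 12.83 against 13.66, 13.26, 13.23 and 13.20. Neither depot's groups overlapped, and the directions were opposite. The change was -1.25 ± 0.18 in ingWAT and 0.52 ± 0.16 in epiWAT, with a difference of -1.77 ± 0.24 (limma, adjusted p = 0.00362).

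Slc16a12, a transporter of creatine, and Gamt, the last enzyme of creatine synthesis, were both among the 10 genes with the smallest p in this direction. Slc16a12 read 10.40, 10.97 and 10.39 in ingWAT with Gipr-/- against 7.42, 8.69 and 7.71 with double-knockout marrow. In epiWAT it read 8.92, 9.15, 8.86 and 9.67 against 9.70, 9.81, 10.14 and 9.45, where the groups overlapped. Its difference of differences was -3.27 ± 0.49 (limma, adjusted p = 0.00856). Gamt read 12.30, 11.41 and 10.46 against 8.58, 9.21 and 8.39 in ingWAT and 11.15, 11.32, 11.73 and 11.63 against 13.93, 12.27, 13.49 and 12.18 in epiWAT. Gamt did not overlap in either depot, and its difference was -4.17 ± 0.79 (limma, adjusted p = 0.0229).

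Fbxl4, a mitochondrial protein that restrains mitophagy, had a change of -0.97 ± 0.21 in ingWAT and 0.90 ± 0.19 in epiWAT. Its ingWAT readings were 11.43, 11.46 and 11.49 with Gipr-/- against 10.79, 10.58 and 10.11 with double-knockout marrow. In epiWAT they were 9.92, 10.65, 10.13 and 10.14 against 11.07, 11.04, 10.94 and 11.40. The groups were apart in both depots and crossed over, with a difference of -1.87 ± 0.28 (limma, adjusted p = 0.00856). Cers4, a ceramide synthase, and Nsdhl, an enzyme of cholesterol synthesis, crossed over in the same way. Their differences were -2.84 ± 0.48 and -2.81 ± 0.49 (limma, adjusted p = 0.0163 and 0.0204). Gpc4, an adipocyte-secreted glypican, Tax1bp3, a PDZ-domain protein, and Ggcx, the vitamin K-dependent carboxylase, had differences of -2.47, -2.04 and -2.62.

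For the other called genes given next, the change in ingWAT was larger in size, and that in epiWAT did not pass. Oxtr, the oxytocin receptor, read 14.30, 16.59 and 14.12 in ingWAT with Gipr-/- marrow against 7.35, 9.12 and 8.95 with double-knockout marrow. In epiWAT it read 11.23, 12.95, 13.20 and 12.75 against 9.69, 12.46, 12.37 and 11.92, with overlap. The change was -6.53 ± 0.86 in ingWAT and -0.92 ± 0.75 in epiWAT, and the difference was -5.61 ± 1.14 (limma, adjusted p = 0.0282). Sema3c, a secreted guidance factor, had a change of -2.85 in ingWAT and -0.08 in epiWAT. Ccn2, a matricellular target of mechanical signalling, had -3.0 and -0.18, and Cpt1a, the gate of fatty acids into mitochondria, -1.74 and 0.04. All 3 passed, with differences of -2.77 (limma, adjusted p = 0.0204), -2.82 (0.0282) and -1.78 (0.0282). Of the 14 fits that left out 1 array, the difference passed in 5 for Oxtr, 11 for Sema3c and 7 each for Ccn2 and Cpt1a. With WT marrow the ingWAT arrays read 9.03 to 11.71 for Oxtr and 10.23 to 10.41 for Sema3c, below all ingWAT arrays with Gipr-/- marrow.

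**Figure D2:**
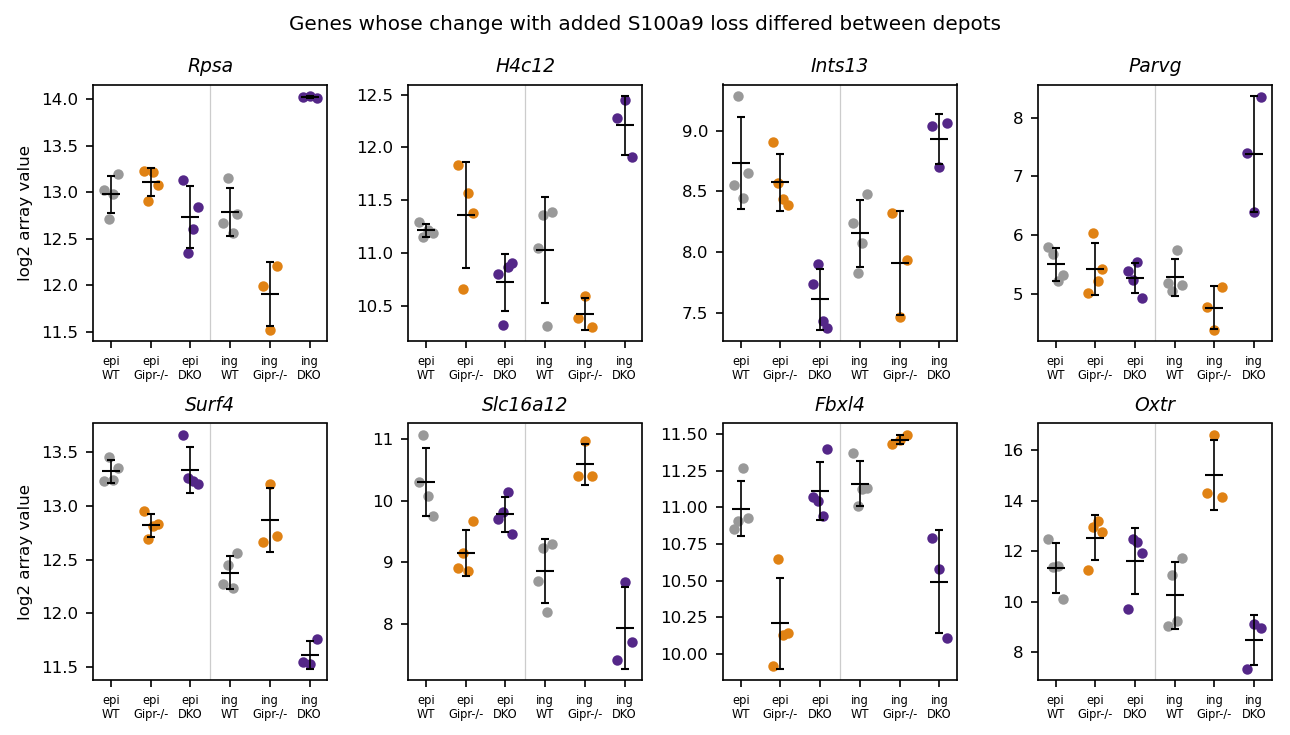
Log2 array values of 8 genes with a called difference of differences; points are arrays, bars the group mean with SD, grey WT, orange Gipr-/- and purple double-knockout (DKO) marrow, with 4 arrays per epiWAT group, 4 for ingWAT WT and 3 for the other ingWAT groups. Rpsa, H4c12 and Parvg part only in ingWAT, whereas Ints13, Surf4 and Fbxl4 part in both depots with opposite direction.

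Ribosomal and histone genes were looked at as families after their members were seen among the leading genes, so the following is a description. Of 55 cytosolic ribosomal protein genes tested, 54 had a positive difference of differences and 8 were called; over all genes 0.345% were called in this direction and 47.4% were positive. The family's median change was 1.35 in ingWAT and 0.07 in epiWAT, and its median difference of differences was 1.23. Scores over the family were -0.60, -0.84 and -0.41 in ingWAT with Gipr-/- against 0.73, 0.52 and 0.80 with double-knockout marrow, without overlap. In ingWAT with WT marrow they ran from -0.65 to -0.14. The epiWAT scores overlapped, at 0.44, -0.24, 0.06 and 0.20 against 0.88, -0.49, 0.36 and -0.07. Without the lymphocyte-rich arrays the median difference was 1.13, and with the B cell score as covariate 1.05. Of 54 replication-dependent histone genes 50 were positive, with a median of 0.99, and the 7 called were all among the 11 H4 genes.

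In ingWAT alone 467 genes passed (3.22% of those tested), 211 higher (1.45%) and 256 lower (1.77%) with double-knockout marrow. In epiWAT alone 1 gene passed (0.00690%), and at an unadjusted p under 0.05 there were 1722 (11.9%). The difference between these counts is not a test of the depots, since ingWAT had fewer arrays and 2 of them stood apart. Of the 467 ingWAT genes 235 had the same sign in epiWAT and 232 the opposite sign, 86 were called in the difference of differences, and 64 also had an unadjusted p under 0.05 in epiWAT with the same sign. The ingWAT count was 104 with only the 14 arrays compared in the fit, and 12 without ingWAT double-knockout arrays 1 and 3 together. It was 120 and 66 without Gipr-/- arrays 1 and 2, and 81, 978 and 163 without double-knockout arrays 1, 2 and 3. Over all genes the changes in the 2 depots correlated with r = 0.0956, a description over genes, which are not independent replicates.

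**Figure D3:**
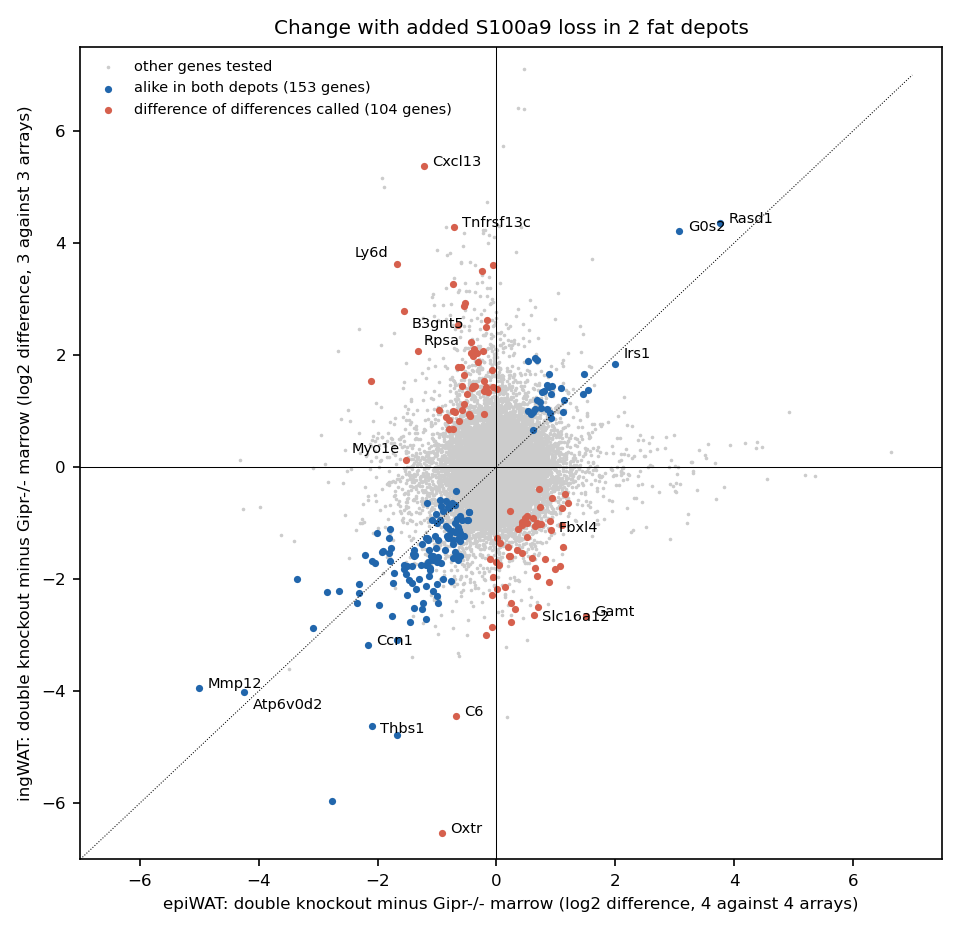
Each point is 1 of 14503 genes, with its change from Gipr-/- to double-knockout marrow in epiWAT (x axis) and ingWAT (y axis), both in log2 units; the dotted line marks equal change. The 104 genes called in the difference of differences lie mostly in the upper left and lower right, and the 153 genes called alike lie along the dotted line, most of them at lower left.

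The gene that passed in epiWAT was Myo1e, a motor protein of phagocytic cells and podocytes. It read 9.78, 10.33, 10.91 and 10.44 with Gipr-/- against 8.72, 9.03, 8.79 and 8.85 with double-knockout marrow, a fall of 1.52 on the log2 scale (SE 0.24, limma, adjusted p = 0.0465). For ingWAT they were 9.04, 9.74 and 9.36 against 9.38, 9.25 and 9.90. The ingWAT groups overlapped, with a change of 0.13 ± 0.27, and the difference of differences was 1.65 ± 0.36 (limma, adjusted p = 0.038). Of the 14 fits that left out 1 array, Myo1e passed in 4 for epiWAT and in 3 for the difference. Other leading epiWAT genes did not pass in epiWAT. Ctss, a lysosomal protease of antigen-presenting cells, had a change of -2.84 in epiWAT and -0.26 in ingWAT, and its difference of 2.58 did not pass (limma, adjusted p = 0.117). Phb2, a scaffold protein of the inner mitochondrial membrane, had changes of 0.83 and 0.28, and Nceh1, a cholesteryl ester hydrolase of macrophages, -2.30 and -1.0. Their differences did not pass either.

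A gene was counted as alike when the unadjusted p was under 0.05 in each depot with the same sign. There were 259 such genes (1.79% of those tested), 70 higher (0.483%) and 189 lower (1.30%) with double-knockout marrow, and 168 without epiWAT Gipr-/- array 3. By the same cut 137 genes (0.945%) moved in opposite directions, and 206 did without epiWAT double-knockout array 1. In 39 genes (0.269%) all double-knockout arrays lay above all Gipr-/- arrays in both depots, and in 76 (0.524%) they lay below in both. In 27 (0.186%) they lay above in ingWAT and below in epiWAT, and in 56 (0.386%) the reverse. The mean of both changes, tested over all genes, passed in 278 genes (1.92%), and 153 genes (1.05%) met both rules, 31 higher (0.214%) and 122 lower (0.841%). These 153 are called alike below; the word refers to direction, and a gene's size of change may still differ between depots. All 153 kept their sign in every alternative, and 47 passed the mean test whichever array was left out. With the B cell score as covariate 67 of the 153 passed it, and with title numbers over 80 as covariate 21. The count of 278 was 95 and 68 without ingWAT Gipr-/- arrays 1 and 2, and 69, 689 and 174 without ingWAT double-knockout arrays 1, 2 and 3. It was 433, 153, 122 and 145 without epiWAT Gipr-/- arrays 1, 2, 3 and 4, and 129 without epiWAT double-knockout array 3. Without ingWAT double-knockout arrays 1 and 3 together 1 gene passed, and with only the 14 arrays compared in the fit 84 did.

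Rasd1, a glucocorticoid-induced small GTPase, rose most among the alike genes. It read 5.94, 4.61, 5.0 and 5.42 in epiWAT with Gipr-/- against 9.15, 8.31, 10.32 and 8.25 with double-knockout marrow. In ingWAT it read 5.16, 4.93 and 4.68 against 11.93, 7.66 and 8.26. The groups were apart in both depots, the mean change was 4.06 ± 0.63 (limma, adjusted p = 0.00295), and the difference between depots was 0.60 ± 1.25. G0s2, which blocks the lipase that starts triglyceride breakdown, read 9.35, 10.36, 8.4 and 10.88 against 11.52, 12.87, 12.75 and 14.16 in epiWAT. In ingWAT G0s2 read 9.81, 7.38 and 11.99 against 14.76, 14.18 and 12.89. Its mean change was 3.65 ± 0.56 (limma, adjusted p = 0.00295), with a difference between depots of 1.14 ± 1.13.

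Irs1, the docking protein of the insulin receptor, read 6.16, 6.88, 5.70 and 6.89 against 7.93, 8.62, 8.44 and 8.62 in epiWAT and 6.90, 6.22 and 8.17 against 9.32, 9.25 and 8.22 in ingWAT. The ingWAT groups were only just apart. The mean change of Irs1 was 1.92 ± 0.33 (limma, adjusted p = 0.00764), and the difference between depots -0.16 ± 0.67. S100a1, a calcium-binding relative of the alarmins, rose by a mean of 1.57 ± 0.28 (limma, adjusted p = 0.00821), with changes of 1.48 in epiWAT and 1.65 in ingWAT. Axin2, a feedback target of Wnt signalling, rose by a mean of 1.25 (limma, adjusted p = 0.0121). With WT marrow, G0s2 read 12.46 to 13.97 in ingWAT and 12.82 to 13.16 in epiWAT, above all arrays with Gipr-/- marrow.

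Ccn1, a matricellular protein induced by mechanical signals, had the smallest p among the alike genes. It read 14.87, 14.06, 15.98 and 14.86 against 11.67, 12.97, 12.98 and 13.49 in epiWAT. In ingWAT the readings were 16.76, 16.53 and 15.44 against 13.02, 12.63 and 13.53. Neither depot's groups overlapped, the mean change was -2.67 ± 0.36 (limma, adjusted p = 0.00267), and the difference between depots was -1.02 ± 0.73. Tnfrsf12a, the receptor of the cytokine TWEAK, read 10.83, 10.10, 11.55 and 10.53 against 7.96, 9.05, 8.98 and 9.10 in epiWAT. It read 11.65, 11.64 and 10.45 against 9.16, 8.70 and 8.51 in ingWAT, with a mean change of -2.22 ± 0.32 (limma, adjusted p = 0.00267).

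Mt2, a metallothionein, read 18.61, 18.52, 19.37 and 18.79 against 16.60, 17.63, 17.52 and 17.72 in epiWAT. In ingWAT it read 19.29, 19.20 and 18.85 against 15.87, 16.91 and 16.24, again without overlap. Its mean change was -2.11 ± 0.32 (limma, adjusted p = 0.00295). Thbs1, a matrix glycoprotein that activates TGF-beta, had changes of -2.10 in epiWAT and -4.63 in ingWAT, with a mean change of -3.36 ± 0.53 (limma, adjusted p = 0.00307). Its difference between depots of -2.53 ± 1.06 had an unadjusted p of 0.0265 and did not pass. Prss23, a secreted protease, Mdm2, the ubiquitin ligase of p53, and Akr1b8, an aldo-keto reductase, also fell, with mean changes of -1.95, -1.64 and -1.47. Errfi1, a feedback inhibitor of the EGF receptor, and Atf3 and Maff, stress-induced factors, had mean changes of -2.44, -1.67 and -1.34, which passed as well. Of the 14 fits that left out 1 array, Errfi1 passed the mean test in 14, and Atf3 and Maff in 5 each.

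**Figure D4:**
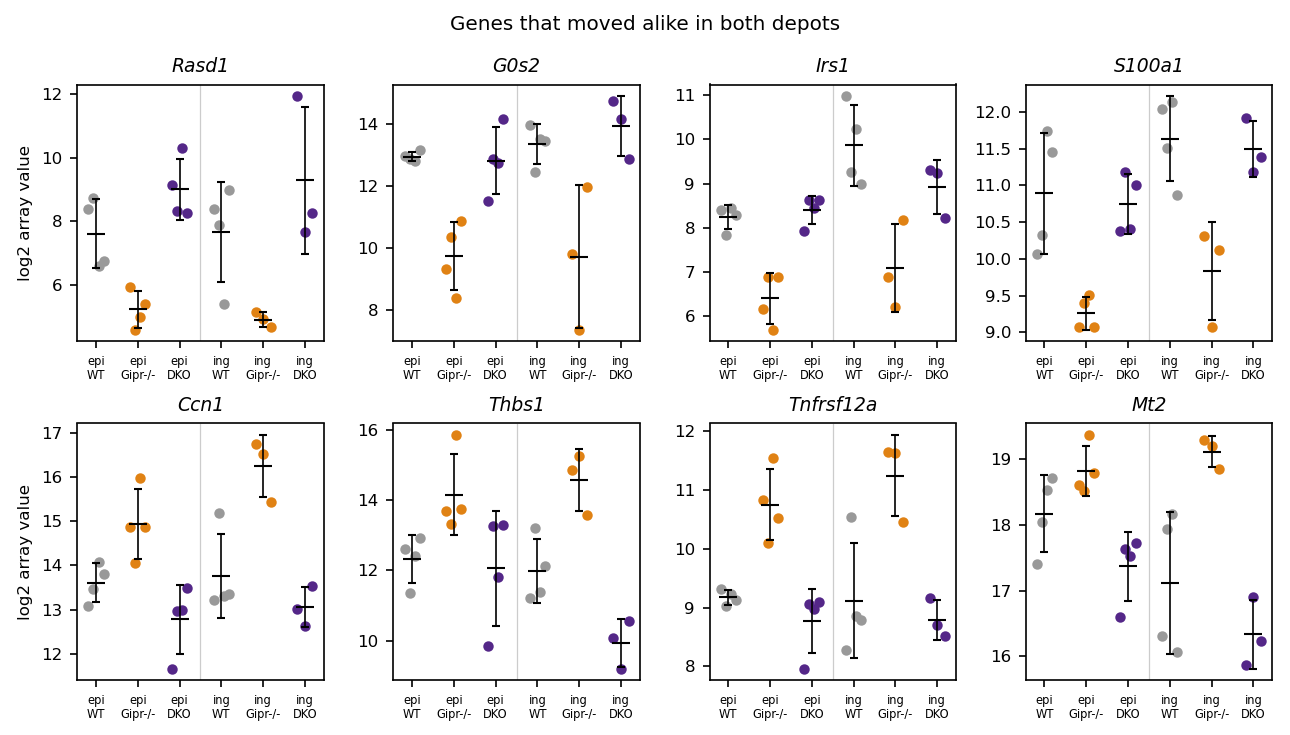
Log2 array values of 8 genes that moved alike in both depots; points are arrays, bars the group mean with SD, colours and array numbers as in the plot of depot-dependent genes. Rasd1, G0s2, Irs1 and S100a1 are higher and Ccn1, Thbs1, Tnfrsf12a and Mt2 lower with double-knockout than with Gipr-/- marrow in both depots.

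Genes of macrophages that surround dying adipocytes and take up lipid lay lower in both depots. Of 18 tested genes of these lipid-associated macrophages, 15 had a negative change in both depots (27.3% of all genes tested had), 6 were called alike and lower, and the medians were -1.27 in epiWAT and -0.90 in ingWAT against 0.00 and -0.03 over all genes. Of all genes, 0.841% were called alike and lower. Mmp12, a macrophage elastase, read 15.84, 15.24, 15.89 and 15.06 against 5.94, 13.12, 13.31 and 9.64 in epiWAT. In ingWAT it read 12.42, 12.03 and 10.78 against 7.90, 6.85 and 8.62, with a mean change of -4.48 ± 1.05 (limma, adjusted p = 0.0334). Atp6v0d2, a subunit of the proton pump of phagocytes, read 11.92, 11.97, 13.81 and 11.59 against 8.28, 9.36, 8.53 and 6.13 and then 9.31, 9.74 and 7.67 against 4.44, 4.60 and 5.61. Its mean change was -4.13 ± 0.76 (limma, adjusted p = 0.00886), and its groups were apart in both depots. Of the 14 fits that left out 1 array, the mean test passed in 7 for Mmp12 and 14 for Atp6v0d2.

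Trem2, the lipid receptor that marks these macrophages, read 8.63, 9.25, 9.15 and 8.32 against 6.29, 7.67, 7.31 and 6.02 in epiWAT and 6.65, 6.49 and 6.17 against 5.46, 5.31 and 4.99 in ingWAT. The mean change of Trem2 was -1.60 ± 0.36 (limma, adjusted p = 0.0284). Lgals3, a galectin, Lipa, the lysosomal acid lipase, and Ctsl, a lysosomal protease, also fell, with mean changes of -1.89, -1.72 and -1.47. Of the 14 fits that left out 1 array, the mean test passed in 7 for Trem2, 8 for Lgals3, 11 for Lipa and 14 for Ctsl. Of 15 general macrophage markers 13 were negative in both depots, with medians of -0.77 and -0.74. Mrc1, the mannose receptor, was the marker among them called alike, with a mean change of -1.74 ± 0.33 (limma, adjusted p = 0.0112). Of 16 lysosome and proton pump genes 13 were negative in both depots, with medians of -0.36 and -0.47; Atp6v1a, Atp6v1b2 and Ctsk were called alike and lower. None of these 3 lists had a member called in the difference of differences. Without the lymphocyte-rich ingWAT arrays the ingWAT medians of the 3 lists were -1.08, -0.46 and -0.57.

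Extracellular matrix genes also lay lower in both depots, with a negative change in both for 20 of 23 and medians of -0.76 in epiWAT and -0.98 in ingWAT. Without ingWAT double-knockout arrays 1 and 3 the ingWAT median was -0.61, and the median difference of differences was -0.03, against -0.37 with all arrays. Postn, a matrix protein of remodelling tissue, Lox, which cross-links collagen, and Mmp3, a matrix protease, were called alike and lower besides Thbs1, with mean changes of -1.71, -1.48 and -1.88. Of the 14 fits that left out 1 array, the mean test passed in 12 for Postn, 4 for Lox, 8 for Mmp3 and 14 for Thbs1. Ccn2 was the member of this list called in the difference of differences. Glucocorticoid response genes had medians of -0.68 and -0.78, although Rasd1 of this list rose and Mt1, Mt2 and Errfi1 fell. Immediate early genes had medians of -0.33 and -0.37.

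Other lists had different medians in the depots. The medians of B cell, T and NK cell and lymph node stroma markers were -1.06, -0.27 and -0.05 in epiWAT and 3.64, 2.12 and 4.11 in ingWAT. Of 9 B cell markers tested all 9 had a positive difference of differences and 1, Blk, was called; over all genes 47.4% were positive and 0.345% called in this direction. Of 13 T and NK cell markers 12 were positive and 0 were called. The median differences of the 3 lists were 4.23, 2.54 and 4.16 with all arrays and 1.12, 0.09 and 0.46 without ingWAT double-knockout arrays 1 and 3. Without those arrays the median changes in ingWAT itself were -0.10, -0.30 and 0.42. In epiWAT the B cell scores were 0.58, 1.51, -0.41 and 0.51 with Gipr-/- marrow. They were -0.22, -0.49, -0.49 and -0.91 with double-knockout marrow, and the groups overlapped. Over all genes tested 52.6% had a negative difference of differences. Endothelial markers had one in 14 of 15, with medians of 0.25 in epiWAT and -0.56 in ingWAT. Lipogenesis genes were negative in 17 of 19, with medians of 0.50 and -0.36, and interferon response genes in 16 of 18, with medians of 0.37 and 0.03. Cell cycle genes were positive in 16 of 19, with medians of -0.54 and 0.11. None of these last 4 lists had a called member, and their epiWAT scores with Gipr-/- and double-knockout marrow overlapped. Of the 18 interferon response genes, 9 had a positive change in both depots. The median difference of lipogenesis genes was -0.51 with all arrays and -0.19 without ingWAT double-knockout arrays 1 and 3. For endothelial markers it was -0.71 and -0.87, for cell cycle genes 0.71 and 0.81, and for interferon response genes -0.63 and -0.30. Without the same arrays the median ingWAT change of lipogenesis genes was 0.12, against -0.36 with all arrays. For endothelial, cell cycle and interferon response genes the ingWAT medians were then -0.46, 0.37 and 0.23. Without array 1 of both epiWAT groups the median differences were -0.64 for lipogenesis, -0.78 for endothelial, 0.39 for cell cycle and -0.48 for interferon response genes. EpiWAT Gipr-/- array 1, the one with germ cell RNA, had a cell cycle score of 0.85, the highest of the 14 arrays compared, and its part in the result was not tested.

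Lists of adipocyte function had medians of 0.50 or less in size. Mature adipocyte genes had medians of -0.21 in epiWAT and 0.01 in ingWAT, oxidative phosphorylation genes 0.05 and 0.26, and insulin signalling genes 0.19 and 0.24. Thermogenic genes had medians of -0.07 and 0.50, and fatty acid oxidation genes -0.31 and -0.34, with Cpt1a the member called in the difference of differences. Skeletal muscle genes had medians of -0.11 and 2.22, epididymis genes 4.02 and 0.17, and testis germ cell genes -1.12 and 0.17, and none of their members passed in either depot or between them.

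**Figure D5:**
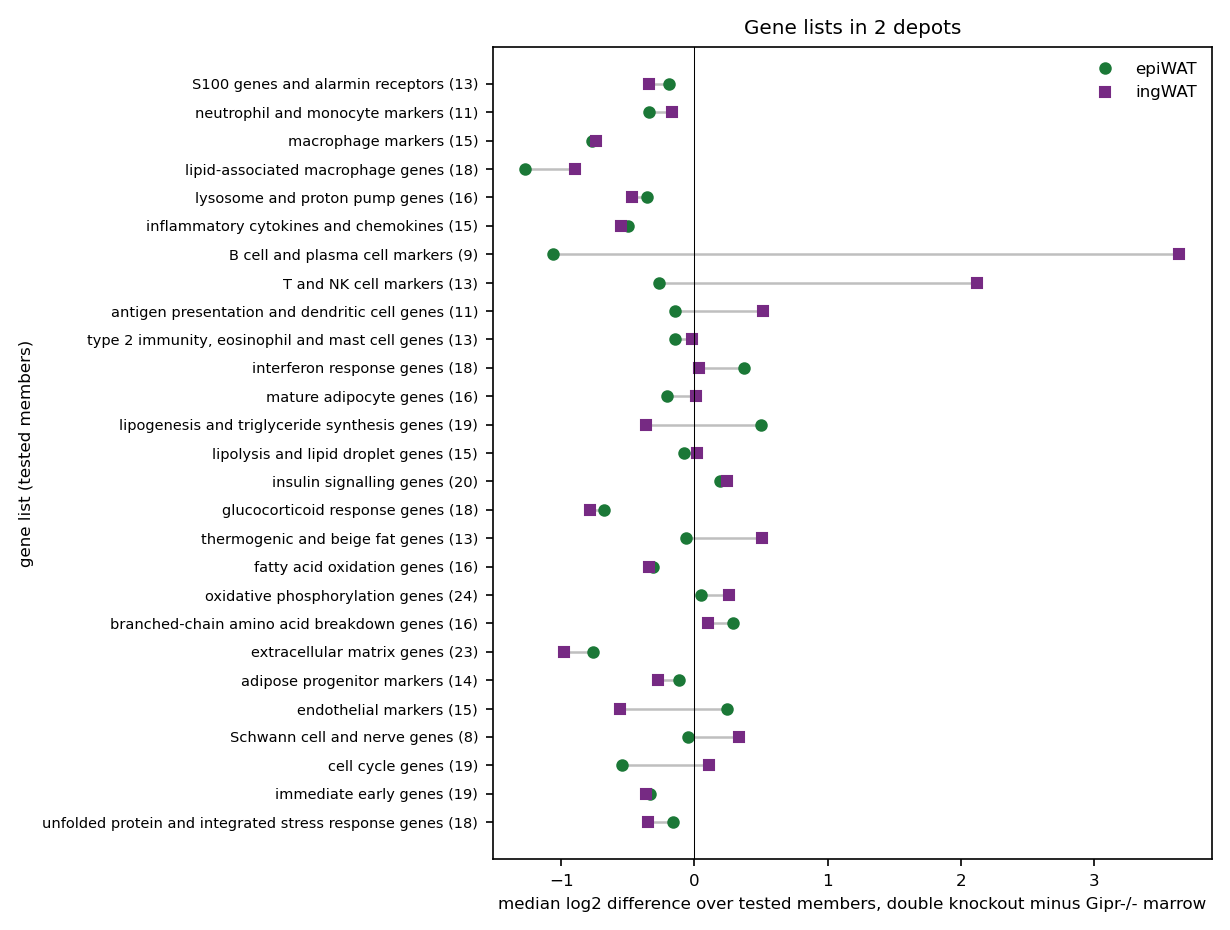
Median change from Gipr-/- to double-knockout marrow over the tested members of each gene list (number in brackets), in log2 units, circles for epiWAT and squares for ingWAT. Macrophage, lysosome and matrix lists lie left of 0 in both depots, and the B cell list runs from -1.06 in epiWAT to 3.64 in ingWAT.

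The targeted genes themselves were dim and did not separate the groups. S100a9 read 4.56, 4.77, 5.64 and 5.75 in epiWAT with Gipr-/- marrow against 5.36, 5.07, 4.78 and 5.53 with double-knockout marrow. In ingWAT it read 6.98, 5.35 and 6.16 against 6.35, 6.18 and 4.94, so the groups overlapped in both depots. The difference of differences of S100a9 was -0.34 ± 0.62 (limma, adjusted p = 0.862). S100a8 had changes of -1.51 ± 0.62 in epiWAT and -1.0 ± 0.71 in ingWAT, with a difference of 0.51 ± 0.94 (limma, adjusted p = 0.865). Gipr, absent from the marrow of both groups, had a difference of 0.80 ± 0.59 (limma, adjusted p = 0.604). S100a9 comes mostly from neutrophils and monocytes, which the marrow supplies, and its readings did not bear out the loss that the labels of the double-knockout arrays name, in either depot. With WT marrow S100a9 had means of 5.37 in epiWAT and 5.65 in ingWAT, below the array medians of 6.11 to 6.54. A feature this dim with WT marrow may be unable to show a loss, so its readings do not decide whether the labels hold. The directions given here rest on those labels.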

How the data were processed

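Values came from 1-colour Affymetrix whole-transcript arrays of fat RNA. The authors deposited a table of 21793 features, read here as log2 values; Partek 6.6 is among the tools in the submitters' processing notes, and the sources used here give no log base and no normalization. Array medians ran from 6.11 to 6.54, and arrays of a group correlated at 0.911 to 0.984 with 0 identical pairs. The platform annotation gave 1 symbol to 19341 features, several to 0 and none to 2452, and RefSeq held all 19341; the brighter feature of a gene was kept, leaving 19337 genes. The 25% of genes dimmest over the 22 arrays were left out, leaving 14503.

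All 22 arrays in 6 groups were fitted with limma 3.58.1 in R 4.3.3 (lmFit, eBayes with a trend, 16 residual degrees of freedom). Tests were two-sided, with Benjamini-Hochberg adjustment over all genes tested and a threshold of 0.05. The fit was tested on simulated data. The difference of differences is the change from Gipr-/- to double-knockout marrow in ingWAT minus that in epiWAT. Arrays are numbered in accession order, which pairs nothing. Whether each array is a different mouse is not said in the labels; p-values then cover only the spread among these samples, which may be technical. Precision is limited by how many arrays there are.

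The comparison, the lists and the rules were chosen with earlier results of these data known. Named were Gipr, S100a8 and S100a9, the 10 genes of each direction with the smallest p past the threshold in the difference of differences and in the mean change, the 8 of each direction with the smallest larger p among alike and opposite genes, the 8 of each direction leading each depot, and, per list, up to 4 members and any that passed. Other genes named were chosen after their values were seen. Alternatives were other array sets, normalizations, filters and variance settings, scores of other tissues or the title number as covariates, and leaving out each array. The B cell score as covariate and leaving out 2 arrays together were added after the data were seen.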

Additional observations from a re-analysis of the deposited data

Results flagged for a closer look

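The count of genes whose change differed between the depots by limma's interaction test was 104. The same test singled out the following genes by their difference of differences on the log2 scale. Higher in ingWAT relative to epiWAT were B3gnt5 (4.35), Parvg (2.78), H4c6 (2.67), St8sia1 (2.65), Rpsa (2.49), H4c3 (2.45), H4c12 (2.42), Rpl7 (2.18), Ints13 (1.99) and Kdm2a (1.42). Lower were Gamt (-4.17), Slc16a12 (-3.27), Cers4 (-2.84), Nsdhl (-2.81), Sema3c (-2.77), Ggcx (-2.62), Gpc4 (-2.47), Tax1bp3 (-2.04), Fbxl4 (-1.87) and Surf4 (-1.77).

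An array lying far from the others of its group was found 6 times in 132 groups of values looked at, and chance gives about 1 in 20. The limit used was that for groups of 4 arrays, and all 6 were found in epiWAT. The ingWAT groups compared had 3 arrays each, so this count says nothing about outlying ingWAT arrays. Array 1 of epiWAT with Gipr-/- marrow, the one with germ cell RNA, scored -1.40 for interferon response genes. Array 2 of that group read 7.24 for B3gnt5 and 12.2 for Sema3c. In epiWAT with double-knockout marrow, array 1, the one with epididymis RNA, read 13.7 for Surf4 and 7.96 for Tnfrsf12a, and array 3 read 13.5 for Ypel3.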

How the results depend on the processing

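No paired analysis was possible because the labels give the arrays no shared replicate numbers. Whether both depots came from the same mice is not given in the labels. If they did, the changes in the 2 depots are not independent, whereas the fit treats all arrays as independent. The main counts were 104 genes for the difference of differences, 467 for ingWAT, 1 for epiWAT, 278 for the mean change, 259 alike and 137 opposite; values below follow this order where several are given. With the 14 arrays alone the first 4 were 2, 104, 0 and 84. With array weights all 6 were 929, 2050, 2, 1227, 402 and 253. With the epididymis score as covariate the difference of differences, ingWAT, epiWAT and opposite counts were 522, 824, 70 and 282, and with skin and muscle scores the first 4 and the last were 434, 868, 111, 540 and 228. With the germ cell score epiWAT, the mean change and alike gave 48, 683 and 428. With a title number over 80 as covariate the first 5 were 10, 32, 0, 26 and 142, and with the B cell score all 6 were 9, 32, 0, 126, 107 and 226. Without ingWAT double-knockout arrays 1 and 3 the first 4 were 5, 12, 0 and 1, the array left being assumed to vary like the other groups. Without array 1 of both epiWAT groups ingWAT gave 829. Without the filter on dim genes the difference of differences gave 69. The epiWAT count was also 0 without that filter, without the trend, with centred medians and with each depot fitted alone, 2 after quantile normalization and 7 over all features. Alike and opposite genes numbered 57 and 25 at an unadjusted p under 0.01, and 101 and 22 with changes over 1. Leaving out each array gave ranges of 5 to 542, 66 to 978, 0 to 5, 68 to 689, 168 to 349 and 98 to 206. The cause of these shifts was not tested.

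Of the values of named genes, 5 turned sign. The difference of S100a9 was 0.28 with the B cell score, 0.017 without the lymphocyte-rich arrays, 0.06 without ingWAT Gipr-/- array 1 and 0.10 without ingWAT double-knockout array 3; that of S100a8 was -0.14 without ingWAT Gipr-/- array 3. Leaving out each array gave -0.75 to 0.10 for S100a9 and -0.14 to 0.98 for S100a8. Of the others 2064 kept direction and side of the threshold, 521 lost the call and 10 gained it.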

Other observations

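The levels with WT marrow, which no comparison here tested, placed some of the moved genes. In ingWAT, Tnfrsf12a read 8.28, 10.55, 8.86 and 8.79 with WT marrow, where array 2 lay within the range of Gipr-/- marrow and the others near double-knockout marrow. In ingWAT, Rpsa read 12.67, 13.15, 12.56 and 12.76 with WT marrow, between both knockout groups, and Surf4 read 12.27, 12.45, 12.23 and 12.56, also between them. For Fbxl4 the ingWAT readings with WT marrow were 11.37, 11.01, 11.13 and 11.13, again between the groups. Myo1e read 8.17, 8.31, 7.92 and 8.59 in ingWAT with WT marrow, below all arrays of both knockout groups there.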
